A study of Arabidopsis thaliana with 9 samples.

Results

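In inflorescence stems of Arabidopsis thaliana, 164 of the 22746 probe sets tested on an Affymetrix ATH1 array were lower in the ccr-1 mutant while staying close to wild type in an HCT-RNAi line. A probe set is a group of short oligonucleotides designed to read a transcript, and some probe sets read those of several genes. A probe set was counted here where the mean log2 intensity of 3 ccr-1 arrays lay at least 0.8 below that of 3 wild-type arrays, and the mean of 3 HCT-RNAi arrays lay within 0.3 of wild type in either direction. These were 0.721% of all probe sets. They named 117 genes, and the other 47 probe sets carry no single gene in the sources used here. Among the named genes were the immune receptors SNC4, RPP4, WRR4 and RPS4, the defence markers PR1 and BGL2, the cytokinin response regulators ARR7 and ARR15, 5 genes of the plastid genome, and the phosphate exporter PHO1.

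Lignin is built from monolignols, phenolic alcohols made from phenylalanine through a chain of enzymes. HCT (hydroxycinnamoyl-CoA:shikimate hydroxycinnamoyl transferase) acts midway in this chain and opens the branch to guaiacyl and syringyl units, whereas CCR1 (cinnamoyl-CoA reductase) acts further down, where CoA esters are reduced towards the alcohols. Loss of either enzyme is known to leave weak vessels and small plants, and lignin mutants of this kind are known for changes in defence genes.

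The wild type, the HCT-RNAi line, in which RNA interference is directed against HCT, and the loss-of-function mutant ccr-1 were each represented by 3 arrays. All 9 samples are labelled Columbia-0, and the plants were 1.5 months old and grown in 16 h of light and 8 h of darkness. The sources used here do not state the promoter of the RNAi construct, how many lines were studied or whether plants were pooled.

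Each target was low in its own line. HCT was at 12.50 in wild type and 8.97 in HCT-RNAi as mean log2 intensity, and CCR1 was at 11.87 in wild type and 10.07 in ccr-1. CCR1 also stood 0.76 below wild type in HCT-RNAi, and HCT 0.55 below wild type in ccr-1. The secondary wall cellulose synthase genes CESA4, IRX3 and IRX1, which mark the lignifying tissue of a stem, were at mean log2 intensities of 12.35, 11.96 and 12.43 in wild-type stems. Markers of other organs moved with the groups. The summed linear intensity of 15 seed storage markers ran from 999 to 1024 in wild type, from 2387 to 2644 in HCT-RNAi and from 91557 to 94524 in ccr-1, where 14 of the 15 were called higher than in wild type. In HCT-RNAi 4 of the 15 were called higher, 2 lower and 9 not called, with a median difference of -0.08. That of 11 floral organ markers ran from 298.5 to 328.7, from 860.1 to 883.7 and from 2027 to 2079, and 10 of the 11 were higher in each line. For 8 pollen and tapetum markers it ran from 1002 to 1019, from 917 to 955 and from 2326 to 2815. Of these 8, 6 were called higher and 1 lower in ccr-1, and 5 higher and 1 lower in HCT-RNAi. Among all probe sets, 24.7% were called higher and 30.1% lower in ccr-1, and 32.9% higher and 27.7% lower in HCT-RNAi. The sum of 6 guard cell markers ran from 631 to 643, from 1081 to 1097 and from 786 to 801. No marker was at 0 on any array, and no marker of these or of the leaf, guard cell and root lists was among the 164 probe sets. The log2 signal of the 3′ end of actin over its 5′ end, a measure of RNA integrity, ran from 3.91 to 4.02 in wild type, from 4.35 to 4.38 in HCT-RNAi and from 3.82 to 3.90 in ccr-1. The same measure for GAPDH ran from 1.39 to 1.50, from 1.69 to 1.91 and from 1.55 to 1.65, so ccr-1 lay below wild type for actin and above it for GAPDH. The part of these organs and of RNA integrity in the values below was not tested. In bulk stem RNA, fewer cells of a type and less RNA per cell cannot be told apart.

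The values that chose the probe sets were spread as follows. The difference of ccr-1 from wild type ran from -1.90 to -0.80 on the log2 scale with a median of -0.94, and its quartiles lay at -1.08 and -0.86. The median over all 22746 probe sets was -0.04. Of the 164, 65 were at least 2-fold lower in ccr-1, as were 3.71% of all probe sets, and the other 99 lay between the threshold and 2-fold. Just inside the threshold stood AT1G72700, AT3G44940 and AT2G02160, each at -0.80, and just outside it AT1G17360, AT1G05170 and AT3G05250 at -0.80, -0.79 and -0.79. No gap separated members from their neighbours. In HCT-RNAi the differences from wild type ran from -0.30 to 0.29 with a median of -0.09, and 120 of the 164 means lay below wild type and 44 above. The difference of ccr-1 from HCT-RNAi ran from -1.74 to -0.53 with a median of -0.88. With the 2 lines exchanged in the rule, 267 probe sets were lower in HCT-RNAi alone, and with the sign exchanged, 406 were higher in ccr-1 alone. In all, 1353 probe sets met the ccr-1 threshold whatever their level in HCT-RNAi.

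**Figure D1:**
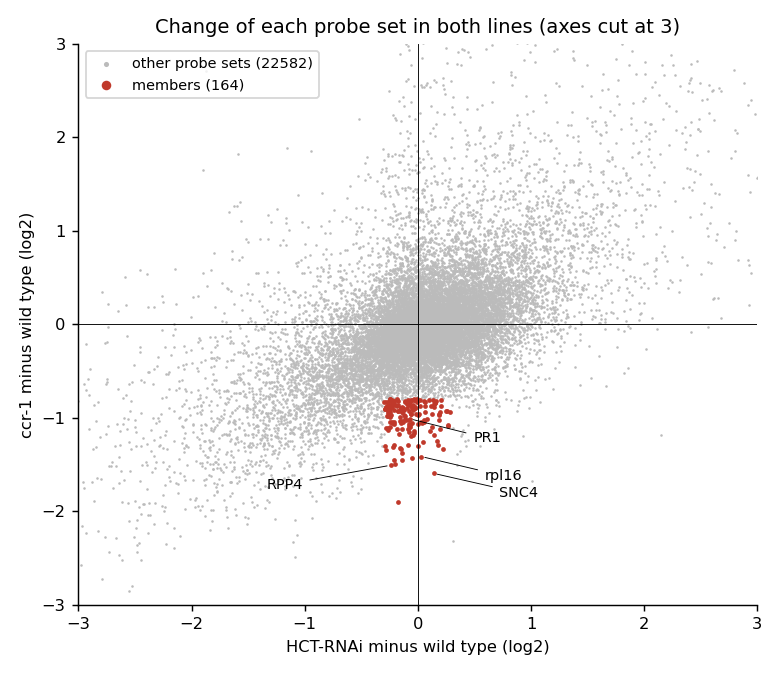
Log2 difference from wild type of each probe set in HCT-RNAi (x axis) and in ccr-1 (y axis), group means of 3 arrays, with both axes cut at 3 log2 units; red points are the 164 probe sets chosen by the rule and grey points all others. The red points fill a block between -0.30 and 0.29 on the x axis and between -1.90 and -0.80 on the y axis, with no gap to the grey points above it.

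Array by array, the 3 ccr-1 values lay below all 3 wild-type values for 164 of the 164 probe sets, and they did so for 32.9% of all probe sets. They lay below all 3 HCT-RNAi values for 163, against 35.4% of all probe sets. The exception was ndhE. HCT-RNAi and wild-type arrays overlapped for 83 of the 164, while all 3 HCT-RNAi values lay below wild type for 60 (31.3% of all probe sets) and above it for 21 (35.3%). By limma's adjusted p under 0.05, 164 were called lower in ccr-1 against 30.1% of all probe sets, and in HCT-RNAi 44 were called lower against 27.7% and 13 higher against 32.9%. The rule chose on these same contrasts, so nothing is read from these counts. Small but called HCT-RNAi differences inside the 0.3 limit thus occurred, and "close to wild type" means close by that limit and not equal. After each array was centred on its median, the share of HCT-RNAi calls that were higher was 39.5% in place of 54.2%. Centring lowered every HCT-RNAi difference by 0.10 and took 43 of the 164 out of the limit of the rule, among them RPP4 (-0.34 in HCT-RNAi after centring), ARR7 (-0.39), LTI30 (-0.38), FRS2 (-0.31), BGLU33 (-0.32), PLDGAMMA2 (-0.31), AT4G01210 (-0.36), ABCG29 (-0.32) and ndhE (-0.38). For these genes a level in HCT-RNAi close to wild type thus depended on the scaling.

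The median log2 intensity of the 164 probe sets was 8.06, 8.09 and 8.13 on wild-type replicates 7, 8 and 9. It was 8.02, 8.02 and 8.07 on HCT-RNAi replicates 1, 2 and 3, and 6.99, 7.15 and 7.06 on ccr-1 replicates 4, 5 and 6. The rule fixed this separation of the ccr-1 arrays from the other 6. The median SD between ccr-1 arrays was 0.12 for the 164 and 0.08 for all probe sets, whereas in wild type and in HCT-RNAi it was 0.07 for both. Replicate 4 held the lowest ccr-1 value for 104 of the 164, and replicate 5 the highest for 82. The same counts were not made over all probe sets, so these are not read as a trait of the 164. The median log2 intensity of all probe sets was 6.93, 6.99 and 6.96 on ccr-1 replicates 4, 5 and 6. The largest SDs between ccr-1 arrays were those of the plastid genes ndhE (0.65) and rps15 (0.50), described below.

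**Figure D2:**
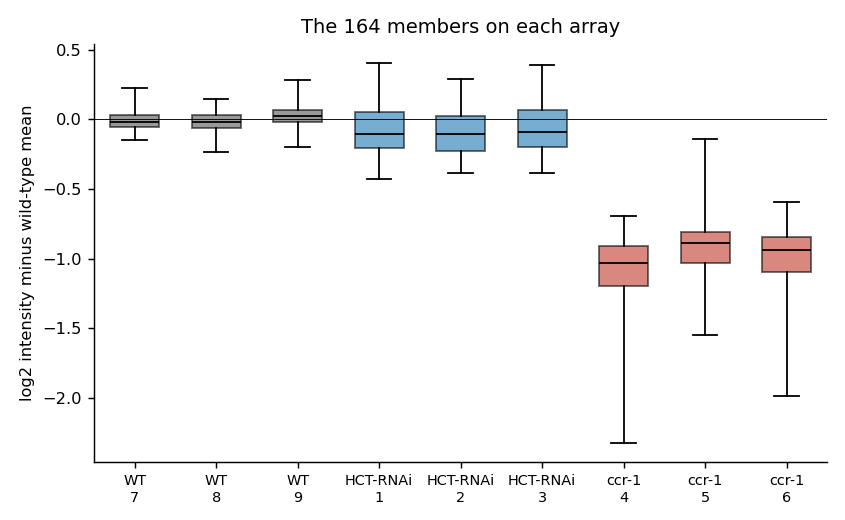
Log2 intensity minus the wild-type mean of the 164 probe sets on each of the 9 arrays; the box spans the quartiles, the line is the median and the whiskers reach the lowest and highest value. The boxes of the 3 ccr-1 arrays lie below -0.8, those of the 6 other arrays lie around 0, and the upper whisker of ccr-1 replicate 5 comes closest to wild type.

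In the following, a gene's values are log2 intensities on single arrays, in the order of replicates 7, 8 and 9 of wild type, 1, 2 and 3 of HCT-RNAi and 4, 5 and 6 of ccr-1. Differences are on the log2 scale, between group means, ± the standard error from limma (SE, n = 3 arrays per group). For the 164 probe sets they are descriptions without a test.

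Plants recognise pathogens through receptors at the cell surface and through intracellular receptors with nucleotide-binding and leucine-rich repeat domains, the resistance proteins. SNC4, an atypical receptor-like kinase with extracellular glycerophosphoryl diester phosphodiesterase domains, had the lowest ccr-1 difference of the 117 named genes of the 164. Its values were 7.08, 7.07 and 7.23 in wild type, 7.26, 7.24 and 7.31 in HCT-RNAi, and 5.45, 5.58 and 5.58 in ccr-1. The difference of ccr-1 from wild type was -1.59 ± 0.06, a 3.02-fold lower level, and that of HCT-RNAi was 0.14. The HCT-RNAi arrays all lay slightly above wild type, and the ccr-1 arrays far below both. The probes of the array are short and fixed in sequence, so for these receptors, as for all 164, a sequence difference under the probes cannot be told apart from a lower transcript level. Beyond the Columbia-0 label, whether the lines differ in sequence there was not tested.

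RPP4 encodes a resistance protein of the TIR class that recognises downy mildew. Its values were 8.89, 8.80 and 8.96 in wild type, 8.58, 8.57 and 8.78 in HCT-RNAi, and 7.49, 7.59 and 7.05 in ccr-1. The ccr-1 difference was -1.51 ± 0.12, or 2.84-fold, with -0.24 in HCT-RNAi, whose arrays all lay below wild type. WRR4, a resistance protein of the same class directed at white rust, gave 7.43, 7.27 and 7.31 in wild type, 7.27, 7.15 and 7.15 in HCT-RNAi, and 6.01, 6.32 and 6.32 in ccr-1, a difference of -1.12 ± 0.09. RPS4, which confers resistance to Pseudomonas syringae carrying AvrRps4, stood at 8.36, 8.26 and 8.45, at 8.50, 8.37 and 8.33, and at 7.19, 7.41 and 7.30, a difference of -1.05 ± 0.08 in ccr-1 and 0.04 in HCT-RNAi. For WRR4 and RPS4 the wild-type and HCT-RNAi arrays overlapped, and the ccr-1 arrays lay below all of them.

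The list of resistance proteins held 35 genes, of which 6 could be named on the array: RPP4, WRR4, RPS4 and 3 others. In ccr-1, 5 of the 6 were called lower (30.1% of all probe sets), 0 higher (24.7%) and 1 was not called, with a median of -1.31; 3 of the 5 are the genes whose direction the rule fixed. In HCT-RNAi, 2 were called lower (27.7% of all probe sets), 1 higher (32.9%) and 3 were not called, with a median of -0.19. The counts of the lists below have the same shares of all probe sets as their background. The other 3 had levels in HCT-RNAi that lay outside the limit of the rule. ZAR1, a resistance protein of the coiled-coil class, fell in ccr-1 (-1.54 ± 0.07, limma adjusted p = 2.09e-09) and in HCT-RNAi (-1.62 ± 0.07, limma adjusted p = 9.01e-10). HR4, a homologue of the powdery mildew gene RPW8, fell likewise in ccr-1 (-2.57 ± 0.08, limma adjusted p = 5.43e-11) and in HCT-RNAi (-2.98 ± 0.08, limma adjusted p = 1.09e-11). CSA1, a TIR-class receptor, did not pass the test in ccr-1 (0.05 ± 0.09, limma adjusted p = 0.698) and rose in HCT-RNAi (0.50 ± 0.09, limma adjusted p = 4.83e-04).

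The kinase genes RIPK and NIK2 were also among the 164. RIPK, a cytoplasmic kinase that phosphorylates the immune regulator RIN4, was at 9.81, 9.82 and 9.67 in wild type, 9.88, 9.99 and 9.86 in HCT-RNAi, and 8.42, 8.60 and 8.72 in ccr-1. The ccr-1 difference was -1.19 ± 0.08 and the HCT-RNAi difference 0.14. NIK2, a receptor kinase named for binding a viral nuclear shuttle protein, was at 8.32, 8.26 and 8.39, at 8.22, 8.20 and 8.40, and at 6.97, 7.02 and 6.69, a ccr-1 difference of -1.43 ± 0.09. HCT-RNAi arrays of NIK2 spread across the wild-type range, and those of RIPK lay just above it.

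Salicylic acid is the hormone of defence against biotrophic pathogens, and PR1 and BGL2 (the glucanase PR-2) are its usual transcript markers. PR1 gave 8.49, 8.18 and 8.13 in wild type, 8.16, 8.31 and 8.13 in HCT-RNAi, and 7.34, 7.27 and 7.17 in ccr-1. It was 2.01-fold lower in ccr-1 (-1.01 ± 0.09) and differed by -0.07 in HCT-RNAi. BGL2 gave 9.33, 9.10 and 9.00, then 8.95, 9.08 and 8.93, then 7.92, 8.22 and 8.19, a ccr-1 difference of -1.03 ± 0.10 and an HCT-RNAi difference of -0.15. For both genes wild-type replicate 7 was the highest of the 9 arrays, HCT-RNAi and wild type overlapped, and ccr-1 stood apart.

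PR1 and BGL2 belong to a salicylic acid list of 38, of which 23 genes were named. The rule fixed their fall in ccr-1 and their level near wild type in HCT-RNAi. Both genes are in the counts that follow, so no contrast between them and the list is read as a result. Of the 23, 20 were called lower in ccr-1, 2 higher and 1 not called, with a median of -1.11. In HCT-RNAi 17 were called lower, 3 higher and 3 not called, with a median of -1.28. PR5, the third classical marker, fell in both lines, by 1.99 ± 0.07 in ccr-1 (limma adjusted p = 1.27e-10) and by 1.81 ± 0.07 in HCT-RNAi (limma adjusted p = 2.08e-10). The same held for the regulators EDS1 (-1.11 and -1.17) and PAD4 (-1.05 and -1.13). WRKY70, a transcription factor of the pathway, fell as well (-1.36 in ccr-1 and -1.77 in HCT-RNAi). EDS16, the isochorismate synthase that makes the hormone, did not pass the test in ccr-1 (0.15 ± 0.10, limma adjusted p = 0.221) and rose by 1.31 ± 0.10 in HCT-RNAi (limma adjusted p = 1.18e-07). SAG101, a partner of EDS1, fell by 0.58 ± 0.07 in ccr-1 (limma adjusted p = 1.97e-05) and differed by -0.17 ± 0.07 in HCT-RNAi (limma adjusted p = 0.0633). A list of 15 named genes of pattern and elicitor responses held none of the 164: 13 of its genes were called lower in each line.

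**Figure D3:**
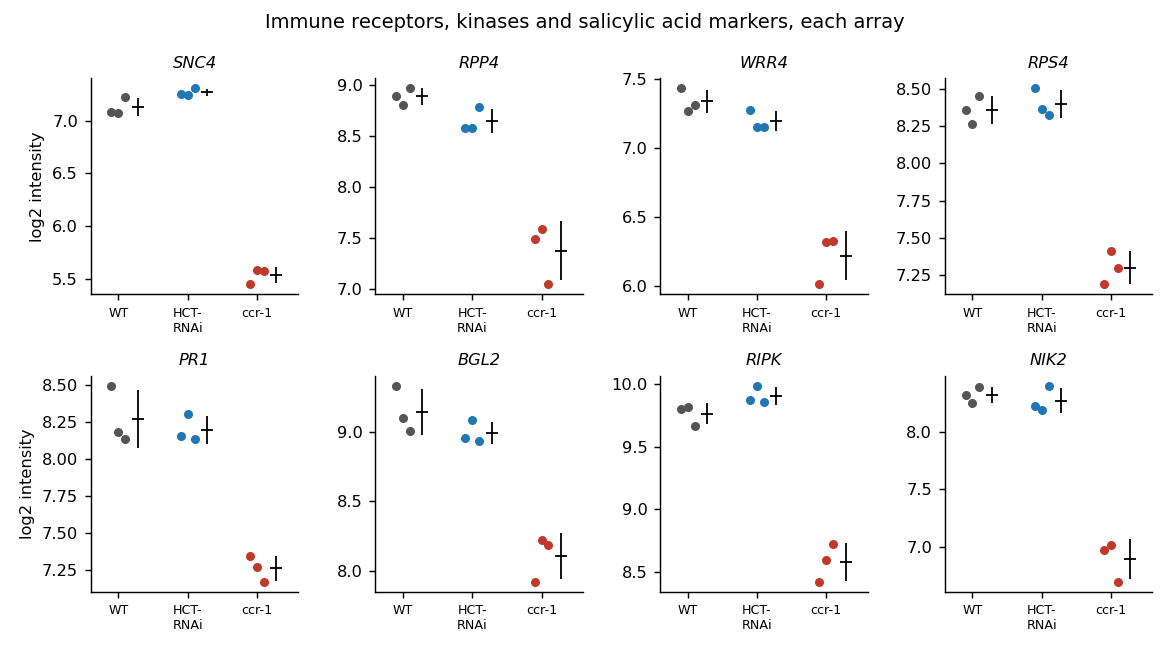
Log2 intensity on each array (dots) with the group mean ± SD (cross and bar, n = 3) for 4 immune receptors, the markers PR1 and BGL2 and the kinases RIPK and NIK2; each panel has its own y axis, which does not start at 0. In every panel the 3 ccr-1 arrays lie below the 6 others, and wild type and HCT-RNAi lie near each other.

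Cytokinins are hormones of cell division, vascular development and leaf ageing. They are sensed by histidine kinases, and type-A response regulators are induced by the signal and dampen it. ARR7, a type-A regulator, gave 10.84, 10.78 and 10.81 in wild type, 10.48, 10.47 and 10.61 in HCT-RNAi, and 9.46, 9.49 and 9.58 in ccr-1. Its ccr-1 difference was -1.30 ± 0.06, or 2.46-fold, and its HCT-RNAi difference of -0.29 lay next to the limit of the rule, with all HCT-RNAi arrays below wild type. ARR15, its closest relative, gave 8.64, 8.68 and 8.86, then 8.70, 8.76 and 8.81, then 7.79, 7.70 and 7.57, a ccr-1 difference of -1.04 ± 0.07 and 0.03 in HCT-RNAi, where the arrays fell inside the wild-type range.

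Of 10 named genes in a cytokinin list of 39, 6 were called lower in ccr-1 and 4 higher, with a median of -0.73, and in HCT-RNAi 4 were called lower, 5 higher and 1 not called, with a median of 0.19. The receptor gene WOL (CRE1/AHK4) fell by 1.39 ± 0.09 in ccr-1 (limma adjusted p = 3.55e-08) and rose by 0.35 ± 0.09 in HCT-RNAi (limma adjusted p = 0.00452), just beyond the limit of the rule. A further type-A regulator, ARR6, fell by 0.41 ± 0.08 in ccr-1 (limma adjusted p = 5.85e-04) and rose by 0.91 ± 0.08 in HCT-RNAi (limma adjusted p = 4.12e-07). RR16, also of type A, rose in both lines, by 2.37 and 1.90. CKX6, which degrades cytokinin, fell in both (-1.73 and -1.35), as did LOG8, which activates it (-1.76 and -1.40). ARR6 and RR16, which the rule did not choose, thus moved in opposite directions in ccr-1, and both rose in HCT-RNAi. The rule fixed the fall of ARR7 and ARR15 in ccr-1 and their level near wild type in HCT-RNAi. No contrast between them and other type-A regulators is read as a result.

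The plastid genome encodes part of the photosynthetic apparatus, the NADH dehydrogenase-like complex and part of the plastid ribosome and RNA polymerase. Of 69 plastid genes named on the array, 5 were among the 164, and 4 of these encode ribosomal proteins. For rpl16, a protein of the large subunit, the values were 11.27, 11.27 and 11.55 in wild type, 11.43, 11.29 and 11.46 in HCT-RNAi, and 9.90, 10.06 and 9.89 in ccr-1, a difference of -1.41 ± 0.09 and 0.03 in HCT-RNAi. For rpl36 they were 11.04, 11.10 and 11.10, then 11.06, 10.81 and 10.91, then 9.36, 10.01 and 9.90, a difference of -1.32 ± 0.13. For rpl14 they were 11.83, 11.81 and 11.90, then 12.00, 11.95 and 12.14, then 10.80, 10.97 and 10.85, a difference of -0.97 ± 0.07 with 0.19 in HCT-RNAi. These 3 genes belong to one ribosomal protein cluster: in the RefSeq table of assembly TAIR10.1 no protein-coding gene lies between rpl14 and rpl16, and 1 lies between rpl36 and rpl14. The neighbours around them were also lower in ccr-1, though by less. rpoA, of the RNA polymerase, fell by 0.45 ± 0.11 (limma adjusted p = 0.00286), rps3 by 0.39 ± 0.10 (limma adjusted p = 0.00488) and rps19 by 0.49 ± 0.10 (limma adjusted p = 0.00143). The gene rpl22 came closest to the threshold, at -0.77 ± 0.09 (limma adjusted p = 1.12e-05).

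For the small-subunit gene rps15 the 3 ccr-1 arrays disagreed. Its values were 7.08, 7.01 and 7.22 in wild type, 7.51, 7.29 and 7.29 in HCT-RNAi, and 5.70, 6.71 and 6.13 in ccr-1, a difference of -0.92 ± 0.18. For ndhE, a subunit of the NADH dehydrogenase-like complex, they were 8.19, 8.24 and 8.41, then 7.98, 7.90 and 8.12, then 6.94, 8.14 and 7.12, a difference of -0.88 ± 0.23 with -0.28 in HCT-RNAi. Replicate 5 of ccr-1 thus lay just above the HCT-RNAi arrays and just below the wild-type arrays for ndhE, and replicates 4 and 6 carried the low mean. Without replicate 5 the differences were -1.19 for rps15 and -1.25 for ndhE, and -1.45 for rpl36, -1.47 for rpl16 and -1.02 for rpl14. The largest difference of all 164 belonged to a probe set without a listed gene, 244981_at, with 9.14, 9.14 and 9.25 in wild type, 9.07, 8.86 and 9.06 in HCT-RNAi, and 6.85, 7.80 and 7.18 in ccr-1. It differed by -1.90 ± 0.17, a 3.72-fold lower level, and here too replicate 5 was the highest of the ccr-1 arrays.

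Over the 69 plastid genes, 37 were called lower in ccr-1 (30.1% of all probe sets), 5 higher (24.7%) and 27 not called, with a median of -0.33. In HCT-RNAi 14 were called lower (27.7% of all probe sets), 8 higher (32.9%) and 47 not called, with a median of -0.12. Of the 15 ribosomal protein genes 11 were called lower in ccr-1 and 0 higher, with a median of -0.64, and 1 lower and 5 higher in HCT-RNAi, with a median of 0.19. Of the 54 other plastid genes 26 were called lower and 5 higher in ccr-1, with a median of -0.27, and 13 lower and 3 higher in HCT-RNAi, with a median of -0.16. The rule fixed the fall in ccr-1 of 4 of the 15 and 1 of the 54. It also fixed their HCT-RNAi level within 0.3 of wild type. No difference between ribosomal and other plastid genes is therefore read from these counts. The falls in ccr-1 beyond the threshold were not limited to ribosomal genes. The dehydrogenase genes ndhK and ndhJ fell (-1.64 ± 0.16, limma adjusted p = 1.69e-06, and -1.41 ± 0.10, limma adjusted p = 1.36e-07), as did the photosystem II gene psbD (-1.26 ± 0.16, limma adjusted p = 2.26e-05). These genes were also lower in HCT-RNAi by more than the limit, at -0.51, -0.44 and -0.91, and so were not counted. Median differences of the 69 genes from the wild-type mean were -0.57, -0.12 and -0.42 on ccr-1 replicates 4, 5 and 6. Leaving out replicate 5 gave 45 genes called lower in place of 37, and leaving out replicate 4 or 6 gave 30.

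**Figure D4:**
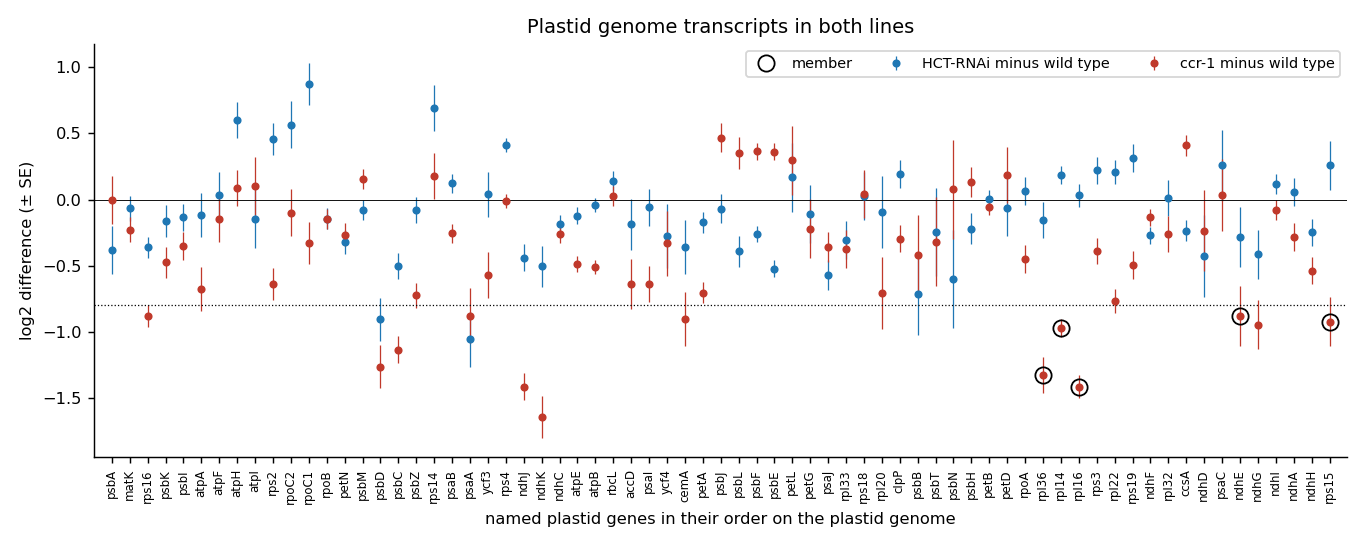
Log2 difference from wild type (± SE) of the named plastid genes in their order on the plastid genome (x axis, not to scale), in ccr-1 (red) and HCT-RNAi (blue); circles mark the 5 genes chosen by the rule and the dotted line is at -0.8. The genes rpl36, rpl14 and rpl16 of the ribosomal protein cluster lie between -1.41 and -0.97 in ccr-1 and between -0.16 and 0.19 in HCT-RNAi.

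SDN2 and XRN2, both nucleases, were among the 30 lowest named genes. SDN2, a nuclease that degrades mature small RNAs, gave 7.85, 7.70 and 7.96 in wild type, 7.65, 7.61 and 7.65 in HCT-RNAi, and 6.15, 6.43 and 6.45 in ccr-1, a difference of -1.49 ± 0.09. XRN2, a nuclear exonuclease that removes RNA from its 5′ end, gave 8.30, 8.34 and 8.35, then 8.22, 8.16 and 8.18, then 6.56, 7.19 and 7.22, a difference of -1.34 ± 0.13. In both genes HCT-RNAi lay slightly below wild type, without overlap, and ccr-1 replicate 4 was the lowest array. No list of RNA turnover genes was used, so nothing is said about that group. Other members of nuclear function, chosen after their values were seen, were the RNA-binding protein gene LARP6b (-1.02), the RNA helicase gene AT4G16630 (-0.94) and the gene for a SNAP43 subunit of the complex that activates small nuclear RNA genes, AT3G53270 (-1.04). Among the 30 lowest named genes were FRS2, a relative of the light-signalling factor FAR1 (-1.45 ± 0.10), the leucine-zipper gene bZIP42 (-1.19 ± 0.11), AT3G09360, annotated as a Brf1-like protein (-1.15 ± 0.10), and AT5G55100, with a SWAP domain (-1.14 ± 0.10).

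Responses to water shortage and cold gave LTI30 and GolS2. LTI30, a dehydrin that protects membranes, was at 11.24, 11.16 and 11.21 in wild type, 10.93, 10.92 and 10.92 in HCT-RNAi, and 9.66, 10.00 and 9.92 in ccr-1, a difference of -1.34 ± 0.08 with -0.28 in HCT-RNAi. GolS2, a galactinol synthase that starts raffinose synthesis, was at 10.46, 10.28 and 10.48, at 10.35, 10.33 and 10.38, and at 9.33, 9.38 and 9.36, a difference of -1.05 ± 0.06 with -0.05 in HCT-RNAi. The HCT-RNAi arrays lay inside the wild-type range for GolS2 and below it for LTI30. Of 16 named genes in the list of abscisic acid, drought and cold, 7 were called lower and 7 higher in ccr-1, with a median of -0.09, and 5 lower and 10 higher in HCT-RNAi, with a median of 0.83. The phosphatase genes HAI1 and PP2CA, which feed back on abscisic acid signalling, rose in both lines (3.94 and 1.07 in ccr-1, 2.54 and 0.73 in HCT-RNAi), and so did COR15A, a chloroplast cold-protection gene (2.03 and 3.54). LTI78, another dehydration gene, fell by 0.79 ± 0.08 in ccr-1 (limma adjusted p = 3.34e-06) and rose by 0.93 ± 0.08 in HCT-RNAi (limma adjusted p = 5.59e-07). The rule fixed the fall of LTI30 and GolS2 in ccr-1 and their level near wild type in HCT-RNAi. No contrast between them and the list is therefore read as a result.

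PRR7 is a repressor in the circadian clock that peaks by day. It gave 8.41, 8.59 and 8.40 in wild type, 8.84, 8.67 and 8.76 in HCT-RNAi, and 7.32, 7.56 and 7.71 in ccr-1. The ccr-1 difference was -0.94 ± 0.09, and the HCT-RNAi difference of 0.29 lay at the upper limit of the rule, with all HCT-RNAi arrays above wild type. Among 8 named clock genes 3 were called lower, 3 higher and 2 not called in ccr-1, with a median of 0.00, and 2 were called lower and 6 higher in HCT-RNAi, with a median of 1.07. GI, an evening clock gene, rose by 0.27 ± 0.06 in ccr-1 (limma adjusted p = 0.00111) and by 1.22 ± 0.06 in HCT-RNAi (limma adjusted p = 1.06e-09). PRR5, a relative of PRR7, did not pass in ccr-1 (0.08 ± 0.14, limma adjusted p = 0.668) and rose by 1.20 ± 0.14 in HCT-RNAi (limma adjusted p = 6.85e-06). The sources used here do not state the hour of harvest.

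PHO1 exports phosphate into the xylem. Its values were 7.73, 7.76 and 7.65 in wild type, 7.93, 7.88 and 7.92 in HCT-RNAi, and 6.55, 6.57 and 6.67 in ccr-1, a difference of -1.12 ± 0.06 with 0.19 in HCT-RNAi. All HCT-RNAi arrays lay above wild type and all ccr-1 arrays more than 1 log2 unit below the HCT-RNAi ones. Of 10 named phosphate genes, 1 was called lower in ccr-1, 8 were called higher and 1 was not called, with a median of 0.70. In HCT-RNAi 1 was called lower and 9 higher, with a median of 1.29. The gene called lower in ccr-1 was PHO1. The rule fixed its fall, so no contrast between PHO1 and the list is read as a result. SPX1, a phosphate sensor, rose by 2.30 ± 0.07 in ccr-1 (limma adjusted p = 2.18e-11) and by 3.29 ± 0.07 in HCT-RNAi (limma adjusted p = 7.78e-13). The acid phosphatase gene PAP17 rose by 3.73 and 3.22, and the ubiquitin-conjugating enzyme gene PHO2, a negative regulator of PHO1 protein, by 0.25 and 1.19.

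CCS, the chaperone that hands copper to copper/zinc superoxide dismutase, was at 10.36, 10.41 and 10.36 in wild type, 10.61, 10.55 and 10.58 in HCT-RNAi, and 9.47, 9.51 and 9.53 in ccr-1. It was 1.83-fold lower in ccr-1 (-0.87 ± 0.05), with 0.20 in HCT-RNAi, and the 3 groups did not overlap. In the list of iron, copper and zinc, 2 of 20 named genes were called lower in ccr-1 and 16 higher, with a median of 0.97, and in HCT-RNAi 4 were called lower and 14 higher. The other gene called lower in ccr-1 was NRAMP1, a manganese and iron transporter, at -2.32 ± 0.06 (limma adjusted p = 1.65e-11), and it rose by 0.31 ± 0.06 in HCT-RNAi (limma adjusted p = 0.00114), just past the limit. FSD1, the iron superoxide dismutase, rose by 3.38 ± 0.06 in ccr-1 (limma adjusted p = 3.00e-13) and fell by 2.61 ± 0.06 in HCT-RNAi (limma adjusted p = 2.55e-12). COPT2, a copper importer, rose by 1.15 ± 0.10 in ccr-1 (limma adjusted p = 1.01e-06) and fell by 0.37 ± 0.10 in HCT-RNAi (limma adjusted p = 0.00782). The copper chaperone gene CCH rose by 1.30 in ccr-1 and by 0.25 in HCT-RNAi. The rule fixed the fall of CCS in ccr-1, so no contrast between it and FSD1, COPT2 and CCH is read as a result.

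**Figure D5:**
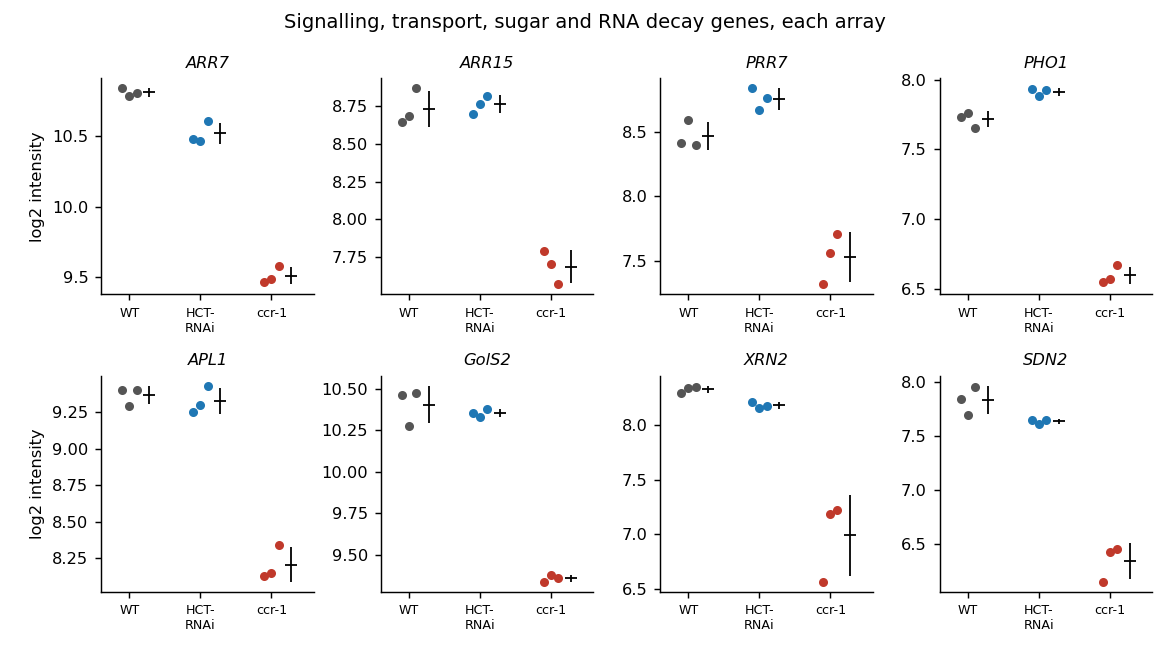
Log2 intensity on each array (dots) with the group mean ± SD (cross and bar, n = 3) for the cytokinin regulators ARR7 and ARR15, the clock gene PRR7, the phosphate exporter PHO1, the starch gene APL1, the galactinol synthase GolS2 and the RNA decay genes XRN2 and SDN2; each panel has its own y axis, which does not start at 0. The HCT-RNAi arrays lie below wild type for ARR7, above it for PRR7 and PHO1 and within or close to it for ARR15, APL1 and GolS2, while the ccr-1 arrays are the lowest in each panel.

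In all, 12 of the 117 named genes belonged to 7 of 38 pathway lists, and 31 lists held none. The lists without any included monolignol synthesis, secondary wall cellulose and xylan, photosynthesis, and sugar and starch. The 164 were 0.721% of all probe sets, so nothing is read from a list that held none. The lists were also incomplete: 7 of 18 monolignol entries were named, and APL1, CT-BMY and SWEETIE, given below, lay outside the sugar and starch list. For secondary wall cellulose and xylan, 18 of 18 named genes were called lower in each line, with medians of -1.29 in ccr-1 and -1.39 in HCT-RNAi. Many list genes owe their name to the table of the authors, which favours probe sets that changed, so the shares of changed list genes are inflated. The counts of a list include its genes among the 164, whose direction the rule fixed.

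Of the genes outside the lists, those with the lowest differences covered several roles. APL1, the large subunit of ADP-glucose pyrophosphorylase, which starts starch synthesis, gave 9.40, 9.30 and 9.40 in wild type, 9.26, 9.30 and 9.43 in HCT-RNAi, and 8.12, 8.15 and 8.34 in ccr-1, a difference of -1.16 ± 0.07 with -0.04 in HCT-RNAi, whose arrays overlapped wild type. BGLU33, a beta-glucosidase, differed by -1.32 ± 0.06, with 9.92, 10.02 and 9.93 in wild type and 8.59, 8.69 and 8.64 in ccr-1. AT1G59740, a transporter of the major facilitator superfamily, differed by -1.30 ± 0.07, with 7.63, 7.67 and 7.82 in wild type, 7.78, 7.63 and 7.70 in HCT-RNAi, and 6.34, 6.46 and 6.43 in ccr-1. For this transporter the wild-type and HCT-RNAi arrays overlapped. PLDGAMMA2, a phospholipase D, varied more between arrays: it gave 5.92, 5.73 and 6.25 in wild type, 5.61, 5.68 and 5.98 in HCT-RNAi, and 4.59, 4.92 and 4.51 in ccr-1, a difference of -1.30 ± 0.14. AT1G51110, a plastid fibrillin, which binds lipids in plastids, differed by -1.29 ± 0.09, and AT4G01210, a glycosyl transferase, by -1.13 ± 0.06. Genes for the pectin lyase-like protein AT3G09540 (-1.38 ± 0.08) and the U-box protein AT2G45920 (-1.45 ± 0.07) came earlier in this order. IGMT4, an O-methyltransferase of indole glucosinolates, differed by -1.12 ± 0.11, and its HCT-RNAi arrays spread from 6.15 to 6.66 around a wild-type level of 6.55 to 6.59.

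Parts of the cytoskeleton and protein kinases were also found. ATM1, a plant myosin, gave 8.29, 8.27 and 8.29 in wild type, 8.41, 8.26 and 8.30 in HCT-RNAi, and 6.92, 7.04 and 7.12 in ccr-1, a difference of -1.25 ± 0.06. Its relative ATM2, chosen after its values were seen, differed by -1.05 ± 0.08, with -0.23 in HCT-RNAi. PHS1, a phosphatase that acts on cortical microtubules, differed by -1.17 ± 0.07. The casein kinase gene ckl10 gave 8.18, 8.18 and 8.27, then 8.27, 8.33 and 8.56, then 7.01, 6.96 and 6.92, a difference of -1.25 ± 0.07 with 0.17 in HCT-RNAi. The remaining genes among the 30 lowest were AT2G39580, with a putative zinc finger (-1.34 ± 0.07, and 0.23 in HCT-RNAi), and AT5G17270, of the prenyltransferase superfamily (-1.18 ± 0.12).

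Further genes named here were chosen after their values were seen. ABCG29 exports p-coumaryl alcohol, a monolignol, across the plasma membrane. It gave 10.36, 10.40 and 10.48 in wild type, 10.11, 10.22 and 10.23 in HCT-RNAi, and 9.23, 9.48 and 9.37 in ccr-1, a difference of -1.05 ± 0.07 with -0.22 in HCT-RNAi, where all arrays lay below wild type. CT-BMY, the beta-amylase BAM3 that releases maltose from starch, differed by -0.92 ± 0.07 in ccr-1 and 0.25 in HCT-RNAi, and SWEETIE, a gene of sugar metabolism, by -1.10 ± 0.11 and 0.13. The mitogen-activated protein kinase kinase kinase gene MEKK3 differed by -1.03 ± 0.06 with -0.10 in HCT-RNAi. ASL9, a LOB-domain gene known to respond to cytokinin, differed by -1.07 in ccr-1 and -0.07 in HCT-RNAi. SAC51, a transcription factor that acts with thermospermine in xylem differentiation, differed by -0.96 and 0.12, and FHL, which brings phytochrome A into the nucleus, by -1.01 and 0.08. TPLATE, of an endocytic adaptor complex (-0.99 in ccr-1), ATGRIP, a Golgi protein (-0.98), and the related genes ATERDJ2A and ATERDJ2B for protein import into the endoplasmic reticulum (-0.94 and -0.90) belong to membrane traffic. No list of membrane traffic genes was used.

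Beyond the plastid genome, neighbours were counted among the named genes of the 164. The 47 probe sets without a name were left out, and no background rate was worked out. In the order of protein-coding genes of TAIR10.1, 5 pairs on the nuclear chromosomes lay at most 10 positions apart. These were PRR7 and AT5G02830 (1 gene between them), IGMT4 and AT1G21160 (2), AT4G16630 and AT4G16660 (2), ATERDJ2A and AT1G79990 (4), and ckl10 and PHO1 (8). Looser groups were not counted. On chromosome 4, for example, AT4G16770, RPP4 (AT4G16860) and CT-BMY (AT4G17090) have locus numbers close to those of AT4G16630 and AT4G16660. Whether the 164 are scattered or grouped was thus not tested.

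Detection calls (present, marginal or absent) were at hand for the 76 of the 164 probe sets that the authors' table holds. Of these 76, the wild type had 75 called present on all its arrays, the HCT-RNAi line 75 and the mutant 71. The kinase gene ATMPK13, chosen after its values were seen, was called present on 0 of the 3 ccr-1 arrays, where it lay between 4.56 and 4.82, against 5.59 to 5.82 in wild type, so its level in ccr-1 is only bounded from above. Of the genes given above, AT5G17270 and rps15 were called present on 2 of the 3 ccr-1 arrays, and rps15 on 2 of the 3 HCT-RNAi arrays. Their differences are less certain for that reason. For the other 88 probe sets no call was used.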

How the data were processed

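The authors deposited linear intensities, with 1 value for each probe set on each array. The submitters' processing notes name RMA and MAS5, without versions or settings. Detection calls came from a second table deposited by the authors, whose intensities were the same (largest difference 0); its fold changes and p-values were not used. Control probe sets (64) were removed, and the log2 of the deposited values was taken. limma 3.58.1 in R 4.3.3 was fitted to all 22746 probe sets with a mean per group over 9 arrays and Benjamini-Hochberg adjustment, and tested on simulated data. The number of arrays limits the precision. Groups and replicate numbers came from the labels. Nothing says that the 3 arrays of a group are separate plants, so the spread behind the p-values is that of these arrays and may be technical.

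Names came from the platform annotation (83 of the 164) and the authors' table (34), with symbols from RefSeq. The 164 probe sets and all gene lists were chosen with earlier results of these data known. Genes were named where they were among the 30 lowest named members, in a list, nearest to the threshold, or in a family of at least 3. The plastid genes other than rpl14, rpl16 and rpl36, the list genes outside the 164 and the genes so marked in the text were chosen after their values were seen. Only 71.3% of the 164 have a named gene, under the 80% needed, so a check of gene length or base composition is void and was not made. Promoter sequences were not used here, and the planned motif search was not run.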

Additional observations from a re-analysis of the deposited data

How the results depend on the processing

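No paired analysis was possible because the replicate numbers run from 1 to 9 with none shared between groups. The number of probe sets chosen was 164 with deposited values, 151 after median centring (121 shared with the 164), 176 after quantile normalization (133 shared), 146 at a mean log2 of at least 6, 157 from means of linear values, 161 from medians of arrays (135 shared), 113 with the HCT-RNAi limit at 0.2, and 65 with the ccr-1 threshold at -1. Leaving out 1 array gave 147 to 194, of which 138 to 161 were shared; the lowest was without ccr-1 replicate 4 and the highest without ccr-1 replicate 5. The median HCT-RNAi difference of the 164 moved from -0.09 to -0.19 after centring and -0.15 after quantile normalization. Centring moved the median HCT-RNAi difference of all probe sets by -0.10. Of 41 named genes none changed the sign of its ccr-1 difference under these settings, and centring moved the HCT-RNAi difference of 29 by more than 1 SD between replicates. Calls of ccr-1 against wild type numbered 12481, and 10213 to 12822 over the alternatives; those of HCT-RNAi numbered 13783, and 10871 to 15469. Plastid genes called lower in ccr-1 numbered 37, and 30 to 45 without 1 ccr-1 array, an alternative chosen after seeing the data. The cause of these shifts was not tested. The promoter motif search was not run.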
